A study of Homo sapiens with 12 samples.

Results

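The family of miR-148a, miR-148b and miR-152 was described in small RNA libraries of a pair of PDAC cell lines, PANC-1 and AsPC-1. Its members are the mature miRNAs hsa-mir-148a-3p, hsa-mir-148a-5p, hsa-mir-148b-3p, hsa-mir-148b-5p and hsa-mir-152-3p, as the count tables spell them, which were taken by name as the listed arms of the 3 hairpins. They are written without the species prefix below. They are 5 of the 1733 mature miRNAs listed in at least 1 of the 12 libraries, and all 5 were detected in each library. MiR-152-5p is not among the members, and it is used below where the arms of its hairpin are compared.

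AsPC-1 (established from ascites) and PANC-1 (established from a primary tumor of the pancreas) were each sampled in 3 control cultures and in 3 cultures transfected with siRNA against MYEOV, a gene studied for its part in the growth of PDAC cells. The labels call the controls wild-type cells without treatment, whereas the treatment protocol lists a negative-control siRNA, so it cannot be told apart whether a difference from the controls belongs to the loss of MYEOV or to the transfection itself. The labels give a harvest at 48 h, while the methods give an earlier time and another sequencing instrument. The protocol lists a pair of siRNAs against MYEOV, and the numbers 1 to 3 of the knockdown libraries may name a replicate or an siRNA. The series title speaks of a knockout, but the protocol describes siRNA. MYEOV is no miRNA and was not measured here, so the degree of its knockdown is not known from these libraries. The lines were grown in different media, so line and medium cannot be told apart, and each line stands for 1 tumor.

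The libraries held 3805084 to 7311783 counted reads and listed 1014 to 1144 miRNAs each. AsPC-1 control replicate 1 stood apart from the other AsPC-1 controls (chi-square per degree of freedom of 224 and 183, against 8.13 to 59.7 for the other pairs of replicates), and the main results that it moves are given with and without it. The methods state in general that experiments were repeated independently, but neither they nor the labels say so of these libraries, so p-values measure only the spread between these libraries, which may be technical. Levels are given in CPM, reads relative to the library total after scaling with TMM factors, for the marker lists over all 12 libraries together. Of the epithelial marker miRNAs, 7 of 8 were listed (miR-205-5p was at 0 in all libraries), and their summed level was 51550 to 62102 CPM in AsPC-1 but 214 to 239 CPM in PANC-1. MiR-200a-3p, miR-200b-3p, miR-200c-3p and miR-429 carried most of the AsPC-1 sum. MiR-375 went the other way, at 1.59 CPM in the AsPC-1 controls and 9.33 CPM in the PANC-1 controls. MiR-203a-3p differed little (7.58 and 5.99 CPM). The markers of mesenchymal cells summed to 5.63 to 9.13 CPM in AsPC-1 and to 63.4 to 74.1 CPM in PANC-1. Those of blood cells summed to at most 18.3 CPM, of muscle to 103 to 168 CPM in PANC-1 and at most 1.79 CPM in AsPC-1, of liver to at most 11.3 CPM and of pancreatic acinar cells to at most 0.547 CPM, whereas both endothelial markers together reached 1037 to 2320 CPM. The part of these marker differences in the line differences below was not tested.

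A miRNA hairpin is cut by Dicer into a duplex of a 5p and a 3p arm, one of which is usually retained in Argonaute while the other is degraded. The retained arm recognizes messenger RNAs mainly through its seed (bases 2 to 8), so miRNAs with the same seed share many predicted targets. MiR-148a is abundant in the normal exocrine pancreas and is often reduced in pancreatic cancer, and the family is best known for repressing DNA methyltransferases such as DNMT1.

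The mature sequences are shown because the 3p arms of the 3 hairpins differ by few bases and yet differed in level. The RefSeq table (GRCh38.p14) held 4 of the 5 members, and miR-148a-5p is named only. Capitals mark the seed, and sequences run 5′ to 3′.
miR-148a-3p: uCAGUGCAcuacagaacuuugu
miR-148b-3p: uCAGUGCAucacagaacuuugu
miR-152-3p: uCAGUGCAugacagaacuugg
miR-148b-5p: aAGUUCUGuuauacacucaggc
miR-152-5p: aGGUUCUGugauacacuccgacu
All 3 of the 3p arms carry the seed CAGUGCA, and no other miRNA of the RefSeq table does (1534 of the 1733 listed miRNAs could be looked up in it). Counting from 1 at the 5′ end, miR-148a-3p and miR-148b-3p differ at 2 of 22 positions (C9U and U10C, the base of miR-148a-3p first). MiR-148a-3p and miR-152-3p differ at 3 of the 21 positions that both have (C9U, U10G and U20G), and miR-148b-3p and miR-152-3p at 2 (C10G and U20G). All of these differences lie outside the seed. Since reads were kept only when they matched the genome without error, a read that covers position 9 and 10 can be assigned to 1 hairpin.

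The hairpins lie on 3 chromosomes, and their sequences are the same in RefSeq and in GRCh37, the build that the reads were mapped to. They are shown because the 3p arms are read out of different surroundings, and capitals mark the arms printed above.
MIR148A: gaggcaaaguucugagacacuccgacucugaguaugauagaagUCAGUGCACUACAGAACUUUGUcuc
MIR148B: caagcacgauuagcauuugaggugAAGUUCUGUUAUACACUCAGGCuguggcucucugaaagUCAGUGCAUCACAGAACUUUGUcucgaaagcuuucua
MIR152: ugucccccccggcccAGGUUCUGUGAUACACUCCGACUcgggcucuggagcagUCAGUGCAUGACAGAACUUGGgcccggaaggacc
In GRCh37, MIR148A (68 bases) lies at chr7:25989539-25989606 on the minus strand, in an intron of an unnamed lncRNA gene of the same strand (chr7:25988277-25990474). MIR148B (99 bases) lies at chr12:54731000-54731098 on the plus strand, in COPZ1, which encodes a subunit of the COPI vesicle coat. It is intronic in all 17 transcripts of COPZ1 that span it, and in transcript COPZ1-201 it is in intron 1. It also lies in an intron of an unnamed lncRNA gene of the same strand (chr12:54670415-54738867). MIR152 (87 bases) lies at chr17:46114527-46114613 on the minus strand, in introns of the 3 spanning transcripts of COPZ2, a paralog of COPZ1. Thus the miR-148b and miR-152 hairpins lie within a pair of paralogous genes, on the strand of each gene, whereas no protein-coding gene holds the miR-148a hairpin.

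In both lines, miR-148b-3p was the most abundant member, and the order of the others depended on the line. Levels are given as CPM scaled within each line, and since the mature miRNAs are of nearly equal length, they were compared with no correction for length. In the AsPC-1 controls, miR-148b-3p stood at 3322 ± 272 CPM (SD, n = 3), 24.4-fold above miR-152-3p (136 ± 17.2). MiR-148b-5p (81.7 ± 2.71) and miR-148a-3p (77.6 ± 25.8) followed, with overlapping values. This order rests on control replicate 1: in the other AsPC-1 controls miR-148a-3p was at 83.6 and 99.8 CPM, above miR-148b-5p at 81.8 and 79.0 CPM. MiR-148a-5p was the lowest, at 0.949 ± 0.274 CPM, which rests on only 5 to 9 reads a library.

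In the PANC-1 controls, miR-148a-3p moved up to the position after miR-148b-3p. MiR-148b-3p stood at 5011 ± 114 CPM, 6.27-fold above miR-148a-3p (799.8 ± 192). MiR-152-3p (404 ± 42.1) and miR-148b-5p (104 ± 8.42) came next, and miR-148a-5p was again the lowest (11.3 ± 4.32). No neighbours in this order overlapped. Among all miRNAs listed in the control libraries, miR-148b-3p ranked 45 of 1319 in AsPC-1 and 32 of 1374 in PANC-1, and miR-148a-3p ranked 175 and 95.

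**Figure D1:**
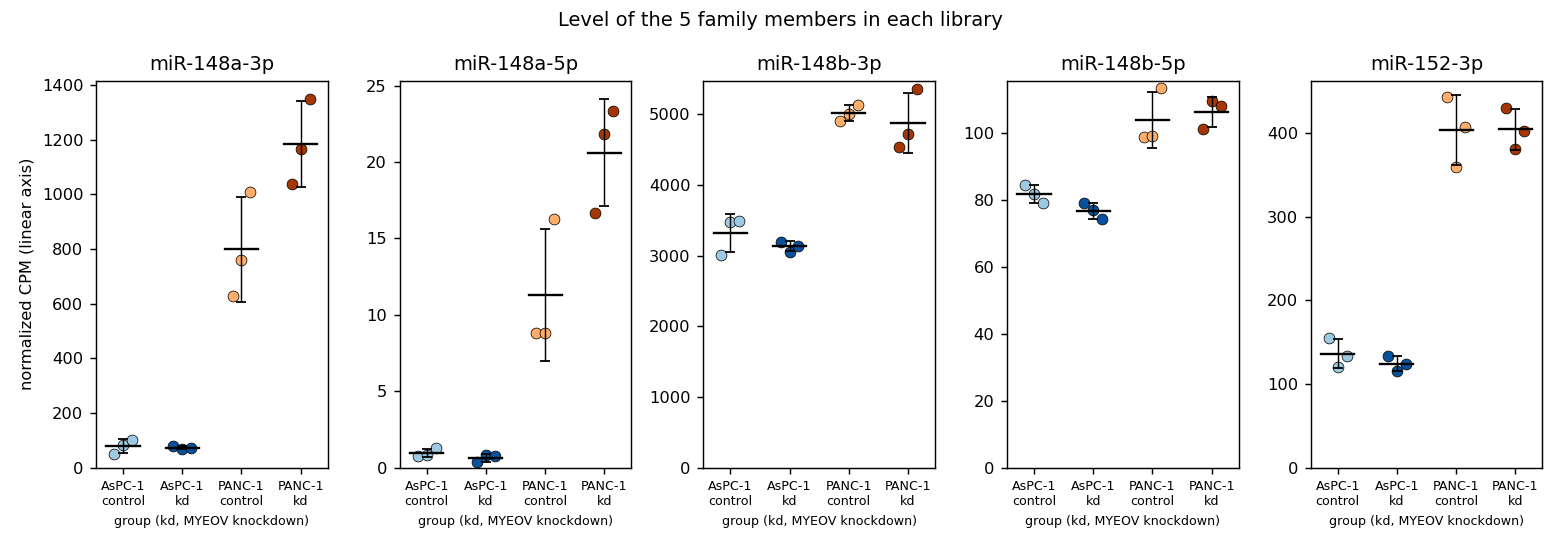
Normalized level (CPM, linear axis, each line on its own TMM scale) of the 5 members in each of 3 libraries per group. Points are libraries, horizontal lines are means and bars are SD. MiR-148a-3p sits at 49.2 to 99.8 CPM in all AsPC-1 libraries and at 630 to 1350 CPM in all PANC-1 libraries, where each knockdown library lies above each control library.

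The next comparison asked how far the lines differ without the knockdown. MiR-148a was the member that differed most, with both arms lower in AsPC-1. On a common scale for the 6 control libraries, miR-148a-3p was at 56.6, 94.2 and 110.9 CPM in AsPC-1 and at 584, 714 and 947.5 CPM in PANC-1. The groups did not overlap, and the lowest value was that of AsPC-1 control replicate 1. The LFC (log2 fold change, here AsPC-1 over PANC-1) was -3.10 with a standard error of 0.22 (8.56-fold lower in AsPC-1, adjusted p = 5.58e-09 by edgeR's quasi-likelihood test). Without AsPC-1 control replicate 1 the LFC was -2.84.

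MiR-148a-5p, the arm that is mostly degraded, was likewise lower in AsPC-1. It was at 0.849 to 1.40 CPM there, and at 8.16 to 15.3 CPM in the PANC-1 controls, without overlap (LFC -3.25, SE 0.36, adjusted p = 8.43e-07). Its AsPC-1 values rest on 5, 6 and 9 reads. Being too low to be tested within AsPC-1, it entered this fit only through PANC-1, where it is high. Its LFC, test and lack of overlap are thus given as a description. MiR-152-3p was at 136 to 178 CPM in AsPC-1 and at 337 to 411 CPM in PANC-1, again without overlap (LFC -1.29, SE 0.12, 2.45-fold lower, adjusted p = 1.43e-07). Taken within each library, the ratio of miR-148a-3p to miR-152-3p, chosen after its values were seen, was 4.21-fold lower in AsPC-1, averaged over control and knockdown libraries. Its log2 difference was -1.83 in the controls (-1.44 without AsPC-1 control replicate 1) and -2.32 in the knockdown cultures. It is given as a description, with no p-value, although it is among the ratio tests that the adjustment below covers.

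MiR-148b, the most abundant hairpin, differed least. MiR-148b-3p was at 3457 to 3917 CPM in AsPC-1 and at 4541 to 4818 CPM in PANC-1, with an LFC of -0.32 (SE 0.09, adjusted p = 0.00501). This call rests on the scaling: the LFC was -0.20 (adjusted p = 0.0679) with TMM factors computed without the 10 most abundant miRNAs, and -0.18 (adjusted p = 0.0735) with all 12 libraries in one fit, but -0.66 (adjusted p = 4.73e-06) with total count scaling, which shifted the median of all LFCs by -0.34. It also rests on PANC-1 control replicate 3, without which the LFC was -0.26 (adjusted p = 0.0569). MiR-148b-5p was at 87.8 to 97.0 and 91.5 to 106.7 CPM, and its LFC of -0.07 (SE 0.11, adjusted p = 0.561) turned to 0.05 and 0.07 under the first pair of these alternatives and was -0.41 (adjusted p = 0.00544) with total count scaling.

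Hence 4 of the 5 members passed the threshold between the control cultures, all lower in AsPC-1 and without overlap. Among them, miR-148a-5p entered the test only through its PANC-1 counts. The lines differ in most miRNAs, however, since 82.8% of the 627 tested miRNAs passed it, 46.7% as lower and 36.0% as higher in AsPC-1, and the median LFC of all was -0.27. The groups of 82.1% of all tested miRNAs did not overlap. The count of 4 of 5 is therefore near the background. The absolute LFC of miR-148a-3p was as large as or larger than that of 68.6% of all tested miRNAs, that of miR-152-3p of 45.9% and that of miR-148b-3p of 14.0%. Without AsPC-1 control replicate 1, 4 of 5 members passed against 83.7% of all, and the LFC was -3.08 for miR-148a-5p, -1.38 for miR-152-3p and -0.24 for miR-148b-3p.

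In the knockdown cultures, which share no library with the controls, the 4 members that passed between the controls were again lower in AsPC-1. On their own scale, miR-148a-3p was at 77.7 to 79.6 CPM in AsPC-1 and at 912 to 1173 CPM in PANC-1 (LFC -3.71, SE 0.09, 13.1-fold lower in AsPC-1). The LFC was -4.66 for miR-148a-5p (SE 0.32), -1.39 for miR-152-3p (SE 0.09) and -0.32 for miR-148b-3p (SE 0.08). That of miR-148a-5p rests on 2, 5 and 4 reads in AsPC-1, and this arm again entered the fit only through PANC-1. These 4 members passed the threshold and did not overlap between the lines, where 85.9% of the 609 tested miRNAs passed it (48.3% as lower and 37.6% as higher in AsPC-1) and 85.9% did not overlap. Their p-values are not printed, because the estimated spread did not vary between miRNAs in this fit and the p-values came out extremely small. MiR-148b-5p had an LFC of -0.15 (SE 0.10, adjusted p = 0.134). With total count scaling the LFC was -0.57 for miR-148b-3p and -0.40 for miR-148b-5p, which then passed, while the median of all shifted by -0.25.

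**Figure D2:**
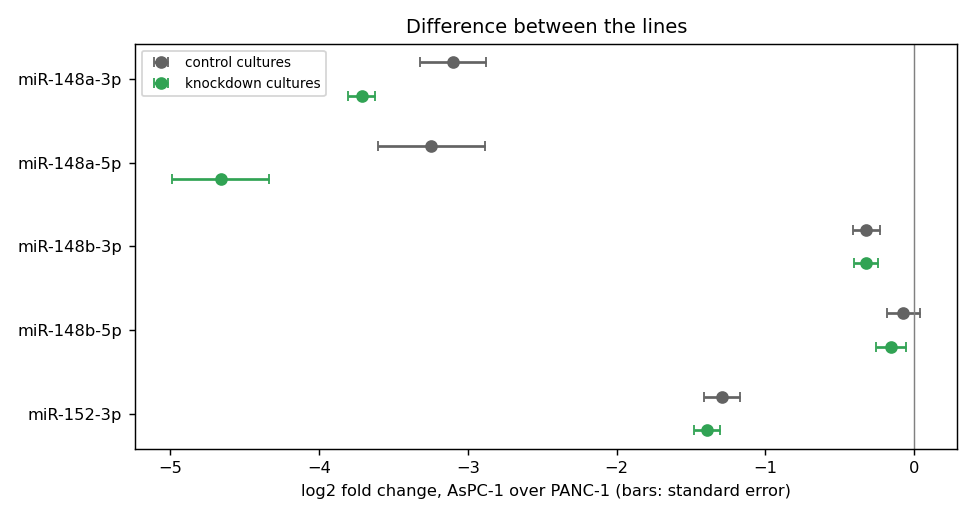
LFC of the 5 members between the lines (AsPC-1 over PANC-1, log2 axis) in 3 control cultures per line and in 3 knockdown cultures per line, with standard errors as bars. Both arms of miR-148a lie at or below -3.10, miR-152-3p at -1.29 and -1.39, and both arms of miR-148b between -0.32 and -0.07. The AsPC-1 values of miR-148a-5p rest on 2 to 9 reads a library.

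The knockdown was then compared with the controls within each line. In PANC-1, both arms of miR-148a rose while the other members did not pass the test. The count of miR-148a-3p was 2863, 4054 and 3899 reads in the controls and 3990, 4441 and 6127 reads after knockdown, which is 630, 761 and 1008 CPM against 1038, 1168 and 1350 CPM. Each knockdown library was above each control library, although control replicate 3 and knockdown replicate 1 lay close together. The mean rose from 799.8 ± 192 to 1185 ± 157 CPM (LFC 0.57, SE 0.11, 1.48-fold, adjusted p = 0.000473).

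MiR-148a-5p was counted 40, 47 and 63 times in the PANC-1 controls and 64, 83 and 106 times after knockdown. On the CPM scale this is 8.80, 8.83 and 16.3 against 16.7, 21.8 and 23.4, again with the highest control (replicate 3) just under the lowest knockdown library. The LFC was 0.90 (SE 0.21, 1.87-fold, adjusted p = 0.00207). In the pooled reads, 253 against 150, the ratio after division by the library totals was 1.72 (95% interval 1.40 to 2.11, counting error only, since PCR reads without molecular identifiers are not independent molecules).

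Both calls held under the 7 other scalings, filters and tests, with an LFC of 0.43 to 0.59 for miR-148a-3p (largest adjusted p 0.0490, by DESeq2) and of 0.76 to 0.90 for miR-148a-5p (largest adjusted p 0.0147). They did not hold without PANC-1 knockdown replicate 3, the library with the highest level of both arms. The LFC was then 0.46 for miR-148a-3p (adjusted p = 0.0626) and 0.80 for miR-148a-5p (adjusted p = 0.0627).

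The other members did not pass the test in PANC-1. MiR-148b-3p was at 4899, 5007 and 5127 CPM in the controls and at 4539, 4723 and 5352 CPM after knockdown (LFC -0.04, SE 0.09, adjusted p = 0.773). The groups overlapped, and the knockdown libraries held both the lowest and the highest value. MiR-148b-5p was at 98.8 to 113.5 CPM before and 101 to 109 CPM after (LFC 0.03, SE 0.10, adjusted p = 0.836), and miR-152-3p averaged 403.8 and 404.5 CPM (LFC 0.00, SE 0.09, adjusted p = 0.984). With total count scaling, miR-148b-3p, miR-148b-5p and miR-152-3p had an LFC of -0.19, -0.11 and -0.14, none past the threshold, while this scaling moved the median of all tested miRNAs by -0.15.

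Of the 5 members, 2 were therefore called in PANC-1, both higher, where 22.0% of the 551 tested miRNAs were called, 12.7% as higher and 9.26% as lower. The groups of 36.7% of all tested miRNAs did not overlap. The direction of the calls depends on the scaling: 57.9% of the 121 calls were higher after knockdown with TMM, but 18.2% of 143 with total counts, and miR-148a-3p (LFC 0.43) and miR-148a-5p (LFC 0.76) were higher with both. Without PANC-1 knockdown replicate 3, 0 of 5 members were called, against 9.62% of all.

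In AsPC-1, no member passed the test. MiR-148a-3p was counted 333, 591 and 714 times in the controls and 450, 409 and 399 times after knockdown, which is 49.2, 83.6 and 99.8 CPM against 77.5, 68.4 and 72.1 CPM. The knockdown libraries lay between the controls, which themselves spread widely. The mean was 77.6 ± 25.8 and 72.7 ± 4.58 CPM (LFC -0.10, SE 0.18, adjusted p = 0.807).

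The AsPC-1 value of miR-148a-3p rests on single control libraries. Without control replicate 1, which stood apart in general, the LFC was -0.33 (adjusted p = 0.0135), and without control replicate 3 it was 0.13 (adjusted p = 0.663). Neither direction of change in AsPC-1 can thus be told from these libraries. MiR-148a-5p was too low to be tested there, with 5, 6 and 9 reads in the controls and 2, 5 and 4 after knockdown. Its pooled ratio, after division by the library totals, of 0.662 had a 95% interval of 0.286 to 1.45 (11 against 20 reads).

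MiR-148b-3p was at 3008, 3476 and 3482 CPM in the AsPC-1 controls and at 3194, 3052 and 3141 CPM after knockdown (LFC -0.09, SE 0.08, adjusted p = 0.524). Its lowest library was control replicate 1, and without that library the LFC was -0.15 (adjusted p = 0.0389). MiR-148b-5p was at 84.4, 81.8 and 79.0 CPM against 78.9, 76.8 and 74.2 CPM, groups that do not overlap but differ little (LFC -0.09, SE 0.10, adjusted p = 0.574). MiR-152-3p was at 120.5 to 154.6 CPM against 115.5 to 133.4 CPM (LFC -0.13, SE 0.11, adjusted p = 0.476). Without control replicate 1 the LFC was -0.0237 for miR-152-3p and -0.06 for miR-148b-5p, and without control replicate 2 it was -0.22 for miR-152-3p.

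Of the 4 members tested in AsPC-1, 0 were called by edgeR, 0 by DESeq2 and 0 at an unadjusted p under 0.05, and 1 did not overlap between the groups. In the same comparison, 11.4% of the 498 tested miRNAs were called (7.03% as higher and 4.42% as lower) and 30.5% did not overlap. An unadjusted p under 0.05 was found for 123 of the 498. The balance of the adjusted calls depends on the fit: 35 were higher and 22 lower, whereas all 12 libraries in one fit gave 25 higher and 45 lower (median LFC of all shifted by -0.10). Without control replicate 1, 2 of the 4 (miR-148a-3p and miR-148b-3p, both lower) were called, against 20.2% of all.

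**Figure D3:**
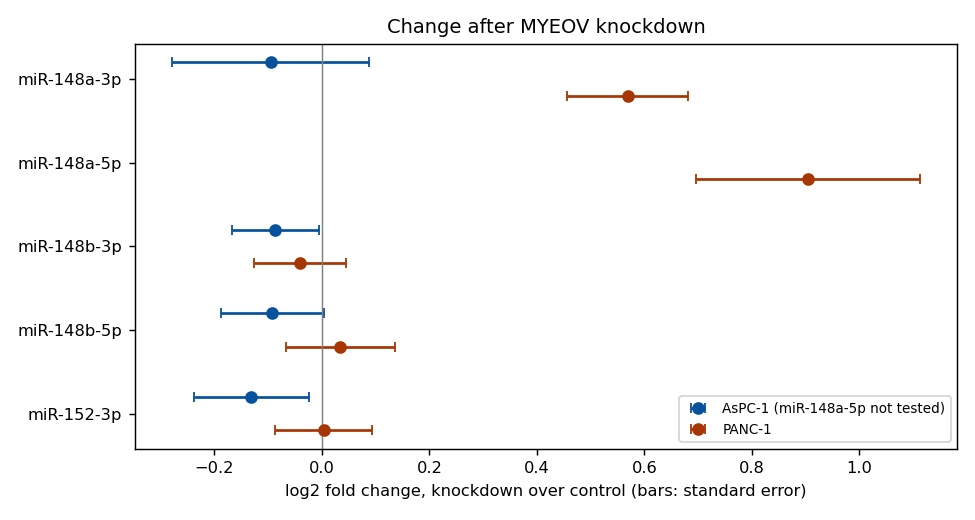
LFC of the 5 members after MYEOV knockdown (knockdown over control, log2 axis, 3 libraries per group) with standard errors as bars. The arms of miR-148a stand at 0.57 and 0.90 in PANC-1, whereas the other tested values of both lines lie between -0.13 and 0.03; miR-148a-5p was not tested in AsPC-1.

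Whether the response differs between the lines was tested in one fit of all 12 libraries. The effect on miR-148a-3p was lower in AsPC-1 than in PANC-1 (difference of the LFCs, AsPC-1 minus PANC-1, -0.76, SE 0.21), with an unadjusted p of 0.00113 and an adjusted p of 0.0917. The difference for miR-148a-5p was -1.56 (SE 0.62, adjusted p = 0.280). It is given as a description, since this arm was too low to be tested in AsPC-1 (11 against 20 pooled reads). It passed the filter of this fit only through PANC-1. The differences for miR-148b-3p, miR-148b-5p and miR-152-3p were -0.14, -0.22 and -0.24, with adjusted p of 0.601 to 0.705. No member passed the threshold, and DESeq2 called 0 of 5. An unadjusted p under 0.05 was found for 2 members, the arms of the miR-148a hairpin, and for 74 of all 650 tested miRNAs.

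The test called 0.308% of the 650 miRNAs, and it recovered 53.5% of simulated differences of 1 on the log2 scale. The simulated counts had the same spread for all miRNAs and no deviating library, so this rate may not hold for these libraries. The median difference of all miRNAs was -0.12. For miR-148a-3p, the call depended on 1 library at a time: it was reached without AsPC-1 control replicate 1 (-0.997, adjusted p = 1.64e-09), without AsPC-1 control replicate 2 (-0.75, adjusted p = 0.0439) and without PANC-1 control replicate 3 (-0.94, adjusted p = 0.00173), and not when any other library was left out. It was also reached with no filter on low counts (-0.79, adjusted p = 0.000671). With the other scalings and tests and with the replicate block the adjusted p ranged up to 0.681, and the difference kept its direction. Without AsPC-1 control replicate 1, 3.76% of all miRNAs were called.

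Ratios between members of 1 library do not depend on how libraries are scaled, so the make-up of the 3p reads was compared next. MiR-148b-3p supplied most of the reads that carry the shared seed in both lines, and miR-148a-3p a larger part in PANC-1. In the AsPC-1 controls, miR-148a-3p made up 1.53%, 2.27% and 2.69% of the summed 3p reads of the family, and after knockdown 2.28%, 2.12% and 2.16%. In the PANC-1 controls it made up 10.5%, 12.4% and 15.4%, and after knockdown 17.3%, 18.6% and 19.0%. The lowest PANC-1 share had a 95% Wilson interval of 10.2% to 10.9% and the highest AsPC-1 share one of 2.50% to 2.89%. These intervals cover counting error only and not the spread between libraries. Within the AsPC-1 controls they did not overlap one another, nor did they within the PANC-1 controls. In the PANC-1 knockdown group, that of replicate 1 lay apart from the others. Within the AsPC-1 knockdown group the intervals overlapped.

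In PANC-1 the share of miR-148a-3p went from 12.8% ± 2.45 to 18.3% ± 0.903 (n = 3), without overlap, at an exact permutation p of 0.1, the smallest that 3 against 3 libraries can give. The share of miR-148b-3p went from 80.7% ± 2.03 to 75.4% ± 0.138, also without overlap, and that of miR-152-3p was 6.51% ± 0.815 and 6.30% ± 0.774. In AsPC-1 the shares of miR-148a-3p were 2.16% ± 0.585 and 2.18% ± 0.0838, with an exact permutation p of 0.9. The difference of 0.0203 percentage points turned to -0.295 without control replicate 1 and was 0.282 without control replicate 3.

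Between the lines, the share of miR-148a-3p was lower in AsPC-1, by a difference of -10.6 percentage points in the controls and -16.1 in the knockdown cultures (mean -13.4, exact permutation within control and knockdown libraries, two-sided p = 0.005, the smallest of 400 arrangements, and 0.0281 after adjustment over 45 tests of 9 ratios). The 45 tests include ratios chosen after their values were seen, which also enter the adjustment. The ratio of miR-148a-3p to miR-148b-3p, chosen after its values were seen, was 1.55-fold higher after knockdown in PANC-1 (log2 difference 0.63, no overlap). In AsPC-1 its log2 difference was 0.05, which turned to -0.18 without control replicate 1 and was 0.23 without control replicate 3. All 3p reads of the family together made up 0.355% ± 0.0160 of the counted reads in the AsPC-1 controls and 0.653% ± 0.0107 in the PANC-1 controls. After knockdown they made up 0.331% ± 0.00171 and 0.614% ± 0.0351. These shares are on the scale of total counts. With TMM scaling within the line, the summed 3p arms stood at 5972, 6128 and 6543 CPM in the PANC-1 controls and at 6007, 6272 and 7104 CPM after knockdown, so the direction of the sum turned with the scaling and the groups overlapped on both scales. In AsPC-1 the groups did not overlap as shares but did with TMM scaling (3212 to 3715 CPM in the controls and 3236 to 3405 CPM after knockdown).

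**Figure D4:**
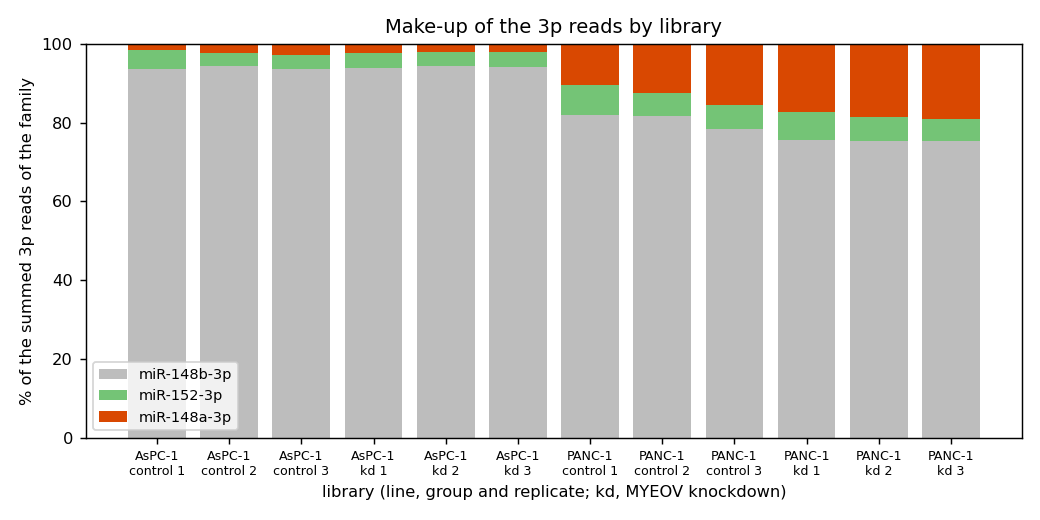
Share of each 3p arm in the summed 3p reads of the family (% of reads, stacked to 100) in each of the 12 libraries. MiR-148b-3p makes up 75.3% or more of each bar, and miR-148a-3p at most 2.69% in AsPC-1 but 10.5% to 19.0% in PANC-1, with the knockdown libraries above the controls.

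The balance of the arms was compared as log2 of 3p over 5p reads. All 3 hairpins gave mostly 3p reads. For the miR-148a hairpin the value was 6.33 ± 0.283 and 6.94 ± 0.774 in AsPC-1 (control and knockdown, n = 3) and 6.18 ± 0.240 and 5.85 ± 0.110 in PANC-1, with overlapping groups in both lines (differences of 0.61 and -0.33, exact permutation p = 0.2 each, where 3 against 3 libraries cannot give a p under 0.1). The AsPC-1 values rest on 2 to 9 reads of the 5p arm, the highest (7.81, knockdown replicate 1) on 2. Without that library the AsPC-1 difference was 0.167, and without knockdown replicate 2 it was 0.897. Between the lines the value was higher in AsPC-1 by 0.15 in the controls (0.00248 to 0.285 with 1 library left out) and by 1.08 in the knockdown cultures (0.645 to 1.38), on average by 0.62 (exact permutation p = 0.03, adjusted 0.15).

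The miR-148b hairpin had values of 5.34 ± 0.164 and 5.35 ± 0.0466 in the AsPC-1 groups, and 5.60 ± 0.0866 and 5.52 ± 0.102 in the PANC-1 groups. It was lower in AsPC-1 by a small step (-0.21, exact permutation p = 0.005, adjusted 0.0281). For the miR-152 hairpin, added after its values were seen, the value was 5.34 ± 0.486 and 4.78 ± 0.320 in AsPC-1 and 4.22 ± 0.405 and 3.74 ± 0.204 in PANC-1. It was 2.11-fold higher in AsPC-1 (log2 difference 1.08). This is given as a description, with no p-value, although it is among the ratio tests that the adjustment covers. MiR-152-5p was 5.13-fold lower in the AsPC-1 controls (LFC -2.36, SE 0.26, adjusted p = 7.09e-07), and miR-152-3p 2.45-fold lower.

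**Figure D5:**
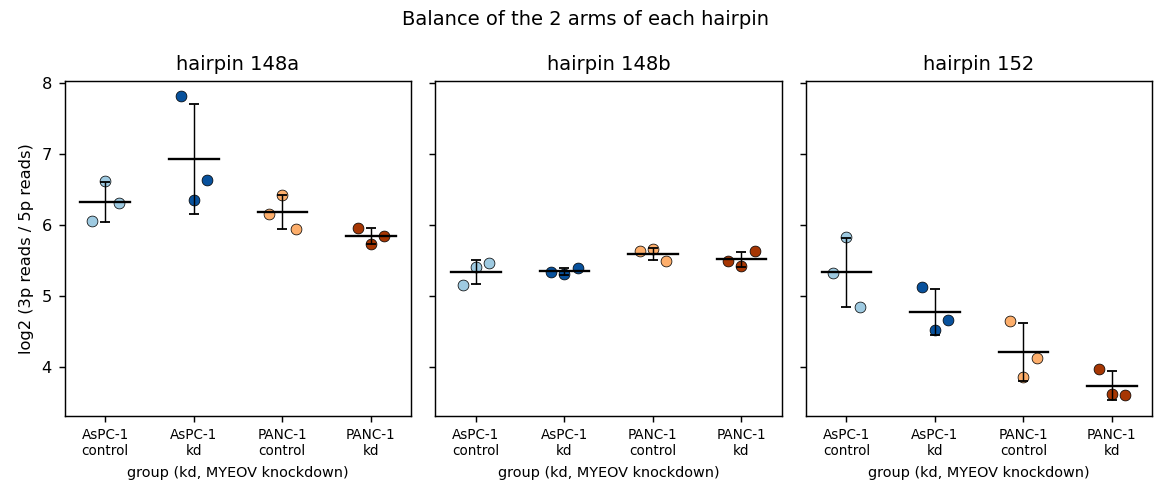
Balance of the arms (log2 of 3p over 5p reads) of the miR-148a, miR-148b and miR-152 hairpins in each of 3 libraries per group, with means as lines and SD as bars. The miR-148b hairpin lies between 5.15 and 5.66 in all libraries, whereas the miR-152 hairpin lies at 4.52 or above in AsPC-1 and at 4.66 or below in PANC-1.

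After knockdown in PANC-1, miR-152-5p was at 27.3 to 32.8 CPM against 17.6 to 24.8 CPM in the controls (LFC 0.47, SE 0.15, adjusted p = 0.0286), while miR-152-3p had an LFC of 0.00. In AsPC-1 its LFC was 0.37 (SE 0.30, adjusted p = 0.477). The hairpin of miR-148a is therefore the one of the family whose arms both rose. Among the 150 hairpins with both arms tested in PANC-1, this was so for 4 (2.67%), which, named after their values were seen, are those of miR-148a, miR-21, miR-22 and miR-27a. Both arms fell for 0 of them, and in AsPC-1 both rose for 0 of 127 and fell for 2 (miR-215 and miR-92b).

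The miRNAs whose levels ran most like those of the 3p arms were sought among 649 others by Pearson correlation of log2 CPM, taken as deviations from the mean of each line, over the 12 libraries. These values are descriptions, since the libraries share the knockdown contrast and the scaling. For miR-148a-3p they were miR-548f-3p (0.933), let-7g-5p (0.913) and miR-7706 (0.908), and the correlation with miR-148a-5p was 0.808. For miR-148b-3p they were miR-340-5p (0.903), miR-374a-3p (0.896) and miR-769-5p (0.887). For miR-152-3p they were miR-99b-5p (0.896), miR-4286 (0.884) and miR-1296-5p (0.869). Within the family, miR-148a-3p correlated at 0.364 with miR-148b-3p and at -0.28 with miR-152-3p, so the 3 arms with the same seed did not share their nearest miRNAs.

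MiR-148a is one of several miRNAs enriched in the normal pancreas, and most of the others were nearly absent from both lines. Of the list of miR-216a, miR-216b, miR-217 and miR-375, 5 arms were listed and 1 was high enough to test. MiR-217 and the arms of miR-216a and miR-216b averaged at most 0.229 CPM in any group. MiR-375, which is known from the endocrine islets, averaged 1.59 CPM in the AsPC-1 controls and 9.33 CPM in the PANC-1 controls (LFC -2.65, SE 0.31, adjusted p = 1.56e-06). It was lower in AsPC-1, as were 46.7% of all miRNAs tested in that comparison. After knockdown the LFC of miR-375 was 0.12 in AsPC-1 (adjusted p = 0.904) and -0.42 in PANC-1 (adjusted p = 0.187).

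Other miRNAs that are known to target DNA methyltransferases moved in both directions. Of 8 such miRNAs, 6 were tested in AsPC-1 and 0 passed (median LFC -0.04 beside -0.00 for all tested miRNAs). In PANC-1, 2 of 8 rose and 1 fell (median 0.04 beside 0.03), where 12.7% of all tested miRNAs rose and 9.26% fell. Of the 4 most abundant, miR-101-3p (LFC 0.35, adjusted p = 0.0286) and miR-126-3p (0.24, adjusted p = 0.0415) rose, while miR-29a-3p had 0.06 (adjusted p = 0.660) and miR-185-5p -0.17 (adjusted p = 0.134). The one that fell was miR-342-3p (-0.35, adjusted p = 0.0200), named after its value was seen. Between the control cultures, 5 of the 8 were higher in AsPC-1 and 2 lower, so that 7 of 8 passed the threshold beside 82.8% of all tested miRNAs (36.0% as higher and 46.7% as lower). MiR-29a-3p, for instance, averaged 13248 CPM in AsPC-1 and 4064 CPM in PANC-1 on the scale of all libraries (LFC 1.56, SE 0.11, adjusted p = 4.13e-09), opposite in direction to miR-148a-3p.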

How the data were processed

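The members and the lists were chosen with earlier results of these data known. Per the labels and methods, the authors used Bowtie (version not given in the sources used here) to place adapter-trimmed reads on hg19, with no mismatch and a length typical of miRNAs. The deposited values are raw counts per mature miRNA, each the sum over its most abundant sequence and those with the same 5′ end. A miRNA not listed in a library was given a count of 0. Samples were grouped by their labels, and no library was left out.

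Counts were tested with edgeR 4.0.16 (R 4.3.3): filterByExpr with a minimum count of 10, TMM scaling, quasi-likelihood F test, and Benjamini-Hochberg adjustment over all miRNAs tested, with a threshold of 0.05. The standard error is the absolute LFC over the square root of F. Each knockdown comparison and each line comparison was fitted on its own 6 libraries, and the difference between knockdown effects on all 12. The control libraries serve both the knockdown and the line comparison. Ratios were tested with two-sided exact permutation tests over libraries in scipy 1.17.1. All members were named, with up to 4 of each list (the most abundant) and the 3 miRNAs most like each 3p arm. A floor of 3 reads corresponds to 0.410 to 0.788 CPM, for counting error only.

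On simulated data with 200 changed miRNAs, 70.1% of LFCs of 0.5 were recovered in AsPC-1 (489 tested), 76.8% in PANC-1 (544), 67.7% between the lines (604) and 25.5% for the difference between effects (636). Counts were drawn from a negative binomial with the same dispersion for all miRNAs of a comparison. No library was made to deviate, so these rates may not hold for the real libraries. Alternatives were DESeq2 size factors and Wald test (1.42.0), total count scaling, TMM without the 10 most abundant miRNAs, no filter, all libraries in one fit, a replicate block, a pseudocount of 0.5 in arm ratios, and leaving out each library. Same-numbered libraries did not deviate together in every pair (correlations from -0.16 to 0.27), so the numbers were not taken as pairing.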

Additional observations from a re-analysis of the deposited data

How the results depend on the processing

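The line differences of miR-148a-3p, miR-148a-5p and miR-152-3p and the rise of both miR-148a arms in PANC-1 kept their direction and call under all other scalings, filters and tests, but both calls in PANC-1 were lost without knockdown replicate 3 (LFC 0.46 and 0.80, adjusted p = 0.0626 and 0.0627). No call on miR-148b-3p between the control cultures was made with TMM without the 10 most abundant miRNAs (-0.20) or with all 12 libraries in one fit (-0.18), where miR-148b-5p turned to 0.0548 and 0.0748. With total count scaling, miR-148b-5p was called between the lines (-0.41 in the controls and -0.40 in the knockdown cultures), and in PANC-1 the LFC after knockdown was -0.11 for miR-148b-5p and -0.14 for miR-152-3p. That scaling moves the median of all LFCs by -0.34, -0.25 and -0.15 in these comparisons. MiR-152-3p in PANC-1 also turned to -0.0049 with DESeq2's size factors and its Wald test, to -0.0008 with TMM without the 10 most abundant miRNAs and to -0.0116 with no filter. The difference between the effects turned to 0.0191 for miR-148b-3p with DESeq2's size factors and with its Wald test, to 0.0889 with total counts, and to 0.0039 for miR-148b-5p with total counts. With no filter it was -0.79 for miR-148a-3p (past the threshold), and 10 miRNAs were called in place of 2. The cause of these changes was not tested.

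With the replicate block, 29 miRNAs were called in AsPC-1 in place of 57, 153 in PANC-1 in place of 121, and 2 for the difference between the effects, and it changed no call on a member. Same-numbered libraries correlated at -0.16, -0.13 and 0.12 for AsPC-1, at 0.05, 0.03 and 0.14 for PANC-1, at 0.27, 0.0956 and 0.18 between the control cultures of the lines, and at -0.04, 0.01 and -0.03 between the knockdown cultures. In no comparison were all 3 over 0.1, so the numbers were not used as pairs. All 12 libraries in one fit gave 67 calls in PANC-1 and 70 in AsPC-1.

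With 1 library left out, the calls ranged from 24 to 102 in AsPC-1 (102 without control replicate 1, 24 without knockdown replicate 1 and 31 without knockdown replicate 3), from 55 to 129 in PANC-1 (55 without knockdown replicate 3 and 68 without knockdown replicate 2) and from 1 to 25 for the difference between the effects. In AsPC-1 the LFC ranged from -0.33 to 0.13 for miR-148a-3p, from -0.146 to -0.0442 for miR-148b-3p, from -0.116 to -0.0606 for miR-148b-5p and from -0.219 to -0.0237 for miR-152-3p. With all 12 libraries in one fit these were -0.19, -0.18, -0.19 and -0.24, none called, where the median of all LFCs shifted by -0.10. In PANC-1 it ranged from 0.41 to 0.76 for miR-148a-3p, 0.74 to 1.21 for miR-148a-5p, -0.113 to 0.0051 for miR-148b-3p, -0.0121 to 0.0863 for miR-148b-5p and -0.0761 to 0.0636 for miR-152-3p. The difference between the effects ranged from -0.997 to -0.524 for miR-148a-3p. Between the control cultures the LFC ranged from -0.35 to -0.24 for miR-148b-3p and from -0.0801 to 0.0394 for miR-148b-5p. The line difference of the share of miR-148a-3p ranged from -16.6 to -15.8 percentage points in the knockdown cultures and from -11.8 to -9.32 in the controls, and the change of the share of miR-148b-3p in PANC-1 from -6.47 to -4.63. MiR-148a-5p, untested after knockdown in AsPC-1, had an LFC of -0.57 (adjusted p = 0.683) with no filter and of -0.66 (adjusted p = 0.536) with all 12 libraries in one fit.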
